A study of Mus musculus with 64 samples.

Results

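The 10 genes described here encode chaperones and quality control factors of the endoplasmic reticulum (ER) together with Xbp1, a transcription factor that controls many of them. They were taken by symbol from a table of 39017 genes, and all 10 were found and passed the filter on low counts in every comparison. RNA had been sequenced from 8 mouse pancreatic tumor lines, each grown alone (mono-culture) or with fibroblasts (coculture), with 4 libraries of each kind and 64 libraries in all. Of the lines, 7 are clones named by a letter, subcloned from a line of a single tumor whose cells carried Pdx1-Cre with the allele Trp53+/R172H on a C57BL/6 mixed background, so each of them is 1 clone and all share this genotype. The study placed E, H and V in metabolic group 1 and K, M, N and T in group 2. KPC1, the remaining line, was placed in neither and did not enter comparisons of the groups. The Pdx1 promoter directs Cre to the pancreatic lineage. Cocultures had lasted 48 h before tumor cells were sorted on their green fluorescence, while the labels do not say whether mono-cultures were sorted too, nor whether the 4 libraries came from separate cultures, so p-values over libraries measure the spread between these libraries, which may be technical.

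Secreted and membrane proteins fold in the ER with the help of chaperones. When unfolded proteins build up there, the sensors IRE1α (encoded by Ern1), ATF6 and PERK (encoded by Eif2ak3) start the unfolded protein response, a program that raises chaperone transcription, slows translation and increases the removal of misfolded proteins. IRE1α acts by cutting a short stretch out of the Xbp1 message, which shifts the reading frame and yields the active factor. Exocrine pancreas cells secrete large amounts of enzyme and are a textbook case of a tissue that depends on this program.

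The stretch that IRE1α removes is shown because it is what sets active Xbp1 apart. In the coding sequence of transcript Xbp1-201 (GENCODE M21), which is 801 bases long, 3 places held the cleavage letters CNGCAGC, cut between the first G and the following C, and 1 pair of them lay 26 bases apart. This stretch, at coding positions 479 to 504, lies in exon 4 of 5 (GRCm38, chr11:5524279-5524304, plus strand). It is printed in capitals with 12 bases on either side.
Xbp1 excised stretch: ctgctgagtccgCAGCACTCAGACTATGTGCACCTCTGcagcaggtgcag
The counts give 1 value per gene and do not separate messages with and without these 26 bases, so every Xbp1 value below is the sum of both forms.

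The ER stress response element (ERSE) is a promoter element known to be bound by ATF6 and XBP1. The 10 genes include many that XBP1 controls, so counts of the element among them are a description and no independent support. RefSeq promoters (GRCm38.p6, from 250 bases before to 50 after the start site) were given for 8 of the 10 genes, all but Hyou1 and Manf. A gene was counted as holding a motif if any promoter given for it did, while the percentages are of single promoters. The ERSE was searched on both strands as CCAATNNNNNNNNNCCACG and was held by 4 of the 8, against 0.119% of 32851 promoters. The related ERSE-II, searched as ATTGG and CCACG with 1 base of any kind between them, was in 1 of the 8, against 0.0365% of all promoters. The letters TGACGTG, the core of the unfolded protein response element, were in 1 of the 8, against 2.01%. CCACG, the end that the ERSE and ERSE-II share, was in 7 of the 8, against 32.8%, and this count includes the matches inside those elements. The stretches below carry 5 bases on either side of each match, with the fixed letters of the motif in capitals, and are read along the gene's own strand.
Hspa5 ERSE (65 to 47 bases before the start, chr2:34772020-34772048, plus strand): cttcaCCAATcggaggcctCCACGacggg
Hspa5 UPRE core (157 to 151 before, chr2:34771928-34771944, plus strand): agcaaTGACGTGagttg
Hsp90b1 ERSE, distal (212 to 194 before, chr10:86705633-86705661, minus strand): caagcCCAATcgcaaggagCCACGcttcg
Hsp90b1 ERSE, proximal and reversed (107 to 89 before, chr10:86705528-86705556, minus strand): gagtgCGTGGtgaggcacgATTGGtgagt
Dnajc3 ERSE (105 to 87 before, chr14:118937822-118937850, plus strand): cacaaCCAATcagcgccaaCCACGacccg
Creld2 ERSE, reversed (126 to 108 before, chr15:88819515-88819543, plus strand): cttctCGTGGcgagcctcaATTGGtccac
Herpud1 ERSE-II (52 to 42 before, chr8:94386372-94386392, plus strand): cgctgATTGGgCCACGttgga
A match is a description of these letters and not a shown binding site. Of the genes with an ERSE or ERSE-II, Hspa5, Hsp90b1, Creld2 and Herpud1 were among the genes that rose in coculture and Dnajc3 was not, as given below. For Sdf2l1, Xbp1 and Dnajb9 none of these longer elements was found in the 300 bases searched.

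Library totals were between 11178721 and 21333683 counts, with a median of 15648009. The lowest count for any of the 10 genes in any library was 41 (Sdf2l1 in clone V) and the highest 62406 (Hspa5 in KPC1). Values are given as CPM, counts scaled to a common library total after adjustment for library composition, and genes are compared with each other only as RPKM, which also divides by gene length. The libraries carry numbers in the labels. They are divided here into sheets A (the 43 lowest numbers) and B (the 21 highest), with the whole mono-culture group of clone K on sheet B. Whether the sheets were processed apart is not known. The epithelial keratins Krt8 and Krt18 were present in every library (lowest 258 and 841 CPM), whereas Epcam did not exceed 0.732 CPM and had no count in 31 of the 64. The sum of 7 epithelial markers (Krt8, Krt18, Krt19, Krt7, Epcam, Cdh1 and Muc1) had a lower mean in coculture than alone in V (1680 against 2408 CPM), H (1947 against 2849 CPM), T (2337 against 3530 CPM) and KPC1 (1898 against 2598 CPM), the 4 lines in which 8 or 9 of the 10 genes rose. The cultures did not overlap in V, H and KPC1. In K (3034 against 2849 CPM) and M (2937 against 2222 CPM) its mean was higher in coculture, and in E (2959 against 3101 CPM) and N (3148 against 3563 CPM) lower. Of 20 fibroblast markers, 19 could be tested, and 15 rose and 1 fell in coculture. The summed level of the 6 defining markers (Dcn, Fap, Postn, Thy1, Pdgfra and Lum) was between 0.236 and 51.7 CPM in the 32 mono-culture libraries and between 22.6 and 195 CPM in the 32 coculture libraries, and Thy1 and Lum had no count in any mono-culture library. Pdgfra had counts in every mono-culture library, up to 51.6 CPM, and without it mono-culture libraries did not exceed 0.200 CPM, against 14.6 to 155 CPM in the cocultures. The part of either marker sum in the coculture responses was not tested. In bulk libraries such as these, fewer cells of a type and less RNA per cell cannot be told apart.

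The level of each gene was compared among the 8 lines in mono-culture. On the RPKM scale, Hspa5 (BiP, the central HSP70 chaperone of the ER, chr2:34771970-34777547) and Hsp90b1 (GRP94, the HSP90 of the ER, chr10:86690209-86705509) had the highest levels, with means over lines of 179 ± 92.4 and 164 ± 48.2 RPKM (SD, n = 8 lines). The other 8 genes had means between 8.05 RPKM for Sdf2l1 and 27.7 RPKM for Manf. All 10 genes differed among the lines (adjusted p by edgeR with the quasi-likelihood model and Benjamini-Hochberg correction, between 2.76e-22 for Xbp1 and 0.000691 for Dnajb9), as did 95.1% of 14134 genes tested. Positions of genes are from GENCODE M21 on GRCm38, and all 10 are annotated as protein-coding.

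Clone K had the lowest mean of 7 genes in mono-culture, and N or KPC1 the highest mean of 9. Hspa5 measured 311, 327, 403 and 498 CPM in the 4 libraries of K. In N it measured 1127, 1317, 1610 and 1659 CPM. The libraries of these clones did not overlap, and the ratio of their means was 3.71. From highest to lowest mean the order for Hspa5 was N, KPC1, T, H, E, M, V and K, and the libraries of each line overlapped those of the next. Xbp1 (chr11:5520659-5525893) had a wider range, 4.73-fold, from 20.6 ± 2.92 CPM in K to 97.5 ± 15.5 CPM in KPC1 (SD, n = 4). Its order was KPC1, N, T, H, M, E, V and K, with gaps between the libraries of H and M, of E and V, and of V and K. The widest range was that of Sdf2l1, a partner of the J-domain proteins of the ER (chr16:17130138-17132383), whose lowest level was in clone V, at 2.62, 3.21, 3.74 and 4.25 CPM, and whose highest was in N, at 15.4, 17.6, 17.9 and 19.4 CPM. These levels differed 5.09-fold in mean. Dnajb9 (ERdj4, a J-domain co-chaperone of BiP, chr12:44205559-44210326) had the narrowest range, 1.38-fold, from 39.7 CPM in K to 54.8 CPM in T.

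**Figure D1:**
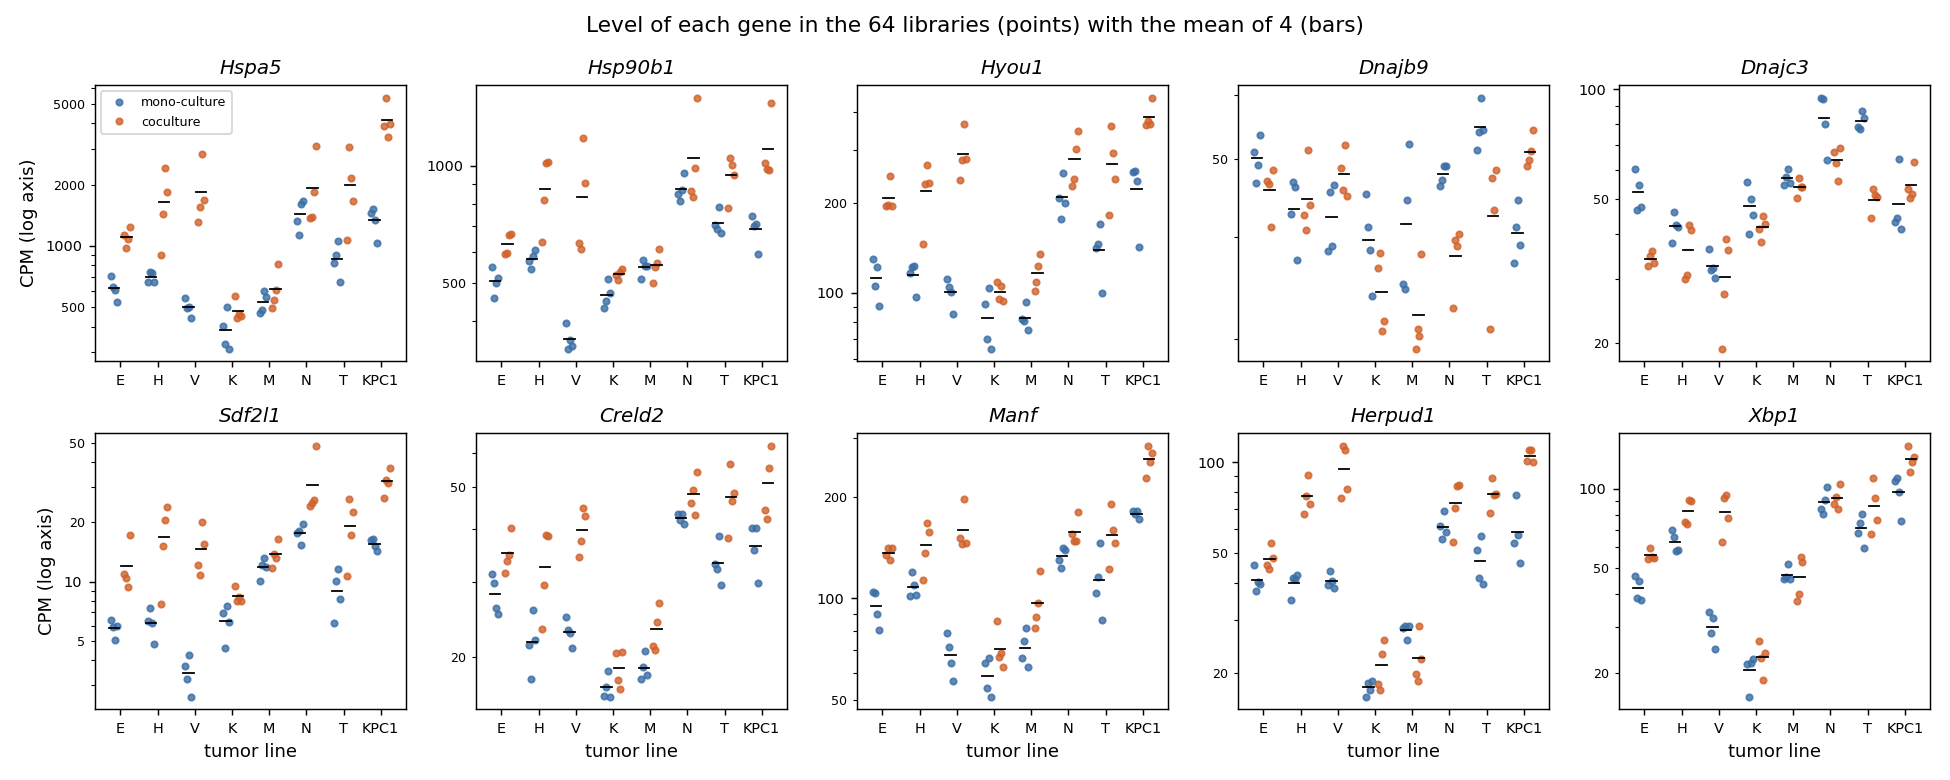
Level of each of the 10 genes (CPM, log axis) in every library, by tumor line and culture; points are single libraries and bars the mean of 4. Coculture points of Hspa5, Hyou1 and Sdf2l1 lie above the mono-culture points in most lines, those of K, M and N lie closest together, and coculture points of Dnajc3 lie below in E and T and those of Dnajb9 below in N and T and above in KPC1.

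The next comparison asked how each gene responded to coculture within each line. Counts of called genes (adjusted p under 0.1) are set beside the share of all 14134 genes called in the same direction. In clone V 8 of the 10 genes rose and 0 fell, where 30% of all genes rose and 31.5% fell (61.5% in all). In H 8 rose and 0 fell, against 21.4% and 22.6% (44% in all). In E 7 rose and 1 fell, against 32.1% and 29.2% (61.3% in all). Every group 1 clone thus had a majority of the 10 genes higher in coculture. In T 8 rose and 2 fell, against 31.5% and 30.7% (62.2% in all). In M 3 rose and 2 fell, against 21.6% and 17.3% (38.9% in all), and in N 2 rose and 2 fell, against 20% and 17.4% (37.4% in all). In clone K 0 genes were called in edgeR, where 12.5% of all genes rose and 8.02% fell (20.5% in all). An unadjusted p-value under 0.05 was found there for 1 of the 10 (Manf) and for 3885 of all 14134 genes. DESeq2 also called 0 in K, limma on RPKM called Manf as higher there, and with the sheet as a covariate edgeR called Dnajb9 as lower. In KPC1 9 rose and 0 fell, against 20.1% and 19% (39.2% in all). The counts in M and N rested on few libraries: leaving out 1 replicate number at a time gave 1 to 3 calls in M and 2 to 5 in N, and without replicate 4 no gene passed as higher in either clone. In all, 52 of the 80 gene and line pairs were called, 45 higher and 7 lower in coculture.

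Hspa5 had a log2 fold change above 0 in all 8 lines and rose in E, H, V, T and KPC1. In V its level was 440, 496, 500 and 555 CPM in mono-culture and 1312, 1553, 1683 and 2830 CPM in coculture. In KPC1 it was 1035, 1346, 1451 and 1510 CPM in mono-culture and 3437, 3888, 3960 and 5360 CPM in coculture. These were the largest responses of the gene, 1.87 ± 0.24 and 1.66 ± 0.24 on the log2 scale (SE), and the cultures did not overlap in either line. In H it was 665, 667, 733 and 742 CPM alone and 897, 1425, 1833 and 2422 CPM in coculture. In E it was 529, 608, 624 and 706 CPM alone and 970, 1076, 1124 and 1239 CPM in coculture. Here too every coculture library was above every mono-culture library. In T it was 660, 824, 898 and 1057 CPM alone and 1071, 1668, 2145 and 3058 CPM in coculture, a rise of 1.19 ± 0.24. In K it was 311 to 498 CPM alone and 439, 450, 460 and 563 CPM in coculture. In M it was 465, 482, 556 and 601 CPM alone and 496, 541, 608 and 814 CPM in coculture. Both of these pairs overlapped, as did those of N (1127 to 1659 CPM alone and 1364, 1382, 1827 and 3079 CPM in coculture), and none of the 3 responses was called (adjusted p = 0.419, 0.496 and 0.200). Cultures did not overlap for 45.2% of all genes in E, 36.5% in H, 48.3% in V, 19.2% in K, 38.2% in M, 22.6% in N, 47.9% in T and 23.4% in KPC1. Coculture was the higher one for 24.4% in E, 20.1% in H, 24.4% in V, 10.9% in K, 20.1% in M, 13.7% in N, 25.1% in T and 11.5% in KPC1.

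Hsp90b1 rose in the same 5 lines and by less than Hspa5 in each of them. Its largest response was in V, where it went from 338, 345, 356 and 394 CPM to 610, 634, 905 and 1180 CPM (1.20 ± 0.15). In KPC1 it went from 594, 701, 707 and 745 CPM to 973, 980, 1018 and 1447 CPM (0.70 ± 0.14). Neither pair overlapped. In M the log2 fold change was 0.02 ± 0.14, with 511 to 573 CPM alone and 501 to 610 CPM in coculture. Hyou1 (GRP170, a large HSP70-like protein and nucleotide exchange factor for BiP, chr9:44379490-44392369) rose in 7 lines, the most of any of the 10 genes. In V it went from 85, 101, 105 and 111 CPM to 238, 276, 279 and 366 CPM (1.51 ± 0.18). In E it went from 90.5, 106, 122 and 130 CPM to 195, 196, 196 and 246 CPM (0.89 ± 0.18). Its cultures were apart in 6 lines and overlapped in K and N. K was the line without a call, at 65 to 104 CPM alone and 93.9 to 109 CPM in coculture (adjusted p = 0.297).

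Dnajb9 and Dnajc3 (p58IPK, a J-domain co-chaperone of BiP, chr14:118937976-118981697) fell in more lines than they rose in, unlike the chaperones. Dnajb9 fell in M, N and T and rose in KPC1. In T it measured 51.2, 54, 54.3 and 59.5 CPM alone and 30.9, 43.3, 47.4 and 48.4 CPM in coculture (-0.38 ± 0.11). In KPC1 it measured 37.2, 39.2, 41.1 and 44.5 CPM alone and 49, 49.8, 51.1 and 54.2 CPM in coculture (0.34 ± 0.11). The cultures were apart in both lines, in opposite directions. Dnajc3 fell in E, N and T and rose in 0 lines. In T it measured 77.5, 78.9, 83 and 86.8 CPM alone and 44.1, 50.5, 51 and 53 CPM in coculture, the largest fall of any of the 10 genes (-0.73 ± 0.13). In E it measured 46.5, 47.3, 54.3 and 60.3 CPM alone and 32.7, 33.2, 34.8 and 35.9 CPM in coculture (-0.62 ± 0.14). In both lines every coculture library was below every mono-culture library, while Hspa5 was above in the same libraries. Cultures were apart with coculture lower for 20.8% of all genes in E, 8.92% in N and 22.8% in T.

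The small lumenal and secreted factors went with the chaperones. Sdf2l1 had the largest response of all, in V, from 2.62 to 4.25 CPM alone to 10.8, 12.2, 15.4 and 20.1 CPM in coculture (2.06 ± 0.26). In H it went from 4.86, 6.21, 6.3 and 7.39 CPM to 7.72, 15.1, 20.4 and 23.8 CPM (1.42 ± 0.24). It rose in 6 lines, all but K and M. Among these its cultures overlapped in T. In K they were apart with coculture higher, without a call (edgeR, adjusted p = 0.289). Manf, a secreted neurotrophic factor that resides in the ER (chr9:106838312-106891979), rose in 6 lines, all but K and N. In V it went from 56.7, 64.2, 71.8 and 78.6 CPM to 145, 145, 151 and 198 CPM (1.22 ± 0.13). In the other 5 lines where it rose, its response was between 0.39 and 0.55. Of these lines its cultures overlapped in H and T. In N they were apart with coculture higher, without a call (edgeR, adjusted p = 0.210). Creld2, an ER protein with disulfide isomerase activity (chr15:88819646-88826683), rose in 6 lines by 0.30 to 0.78, with overlapping cultures in H and T among them. In V it went from 21, 22.8, 23.2 and 24.8 CPM to 34.2, 37.4, 42.8 and 44.8 CPM.

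Herpud1, a membrane protein of ER-associated degradation that helps to assemble the HRD1 complex (chr8:94386438-94395377), rose in H, V, T and KPC1 and fell in M. In V it measured 38.3, 39.1, 40.6 and 43.7 CPM alone and 76.2, 81.6, 110 and 114 CPM in coculture (1.22 ± 0.14). In H it measured 35.1, 41.2, 41.2 and 42.4 CPM alone and 67.4, 73, 77.3 and 91.2 CPM in coculture (0.93 ± 0.14). In M it measured 25.9, 28.2, 28.6 and 28.6 CPM alone and 18.9, 19.8, 22.3 and 28.6 CPM in coculture (-0.31 ± 0.14, adjusted p = 0.0823). The cultures were apart in the lines where it rose and overlapped in M.

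Xbp1 rose in E, H, V, T and KPC1, the same 5 lines as Hspa5, and its response in V stood far above the others. In V it measured 24.7, 28.3, 32.5 and 34.1 CPM alone and 63.1, 77.9, 92.5 and 94.6 CPM in coculture (1.44 ± 0.14, adjusted p = 2.36e-12). In KPC1 it measured 75.5, 97.7, 107 and 110 CPM alone and 116, 126, 133 and 146 CPM in coculture (0.43 ± 0.13). In E it measured 38.1, 38.6, 44.6 and 46.6 CPM alone and 54.5, 55, 55.4 and 59.7 CPM in coculture (0.41 ± 0.13). None of these pairs overlapped. In H it measured 58.3, 58.8, 65.9 and 69.7 CPM alone and 73.4, 74.7, 89.9 and 90.5 CPM in coculture (0.36 ± 0.13). In T it measured 59.9, 68.3, 74.6 and 80.5 CPM alone and 67.7, 76.2, 92.1 and 110 CPM in coculture (0.27 ± 0.13), with overlap. N, the clone with the second highest mono-culture level, measured 80.1, 84.1, 91 and 102 CPM alone and 83.8, 87.3, 93.2 and 104 CPM in coculture. In N, M and K the log2 fold changes were 0.02, -0.03 and 0.16, each with an SE of 0.13 or 0.14, and none was called.

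**Figure D2:**
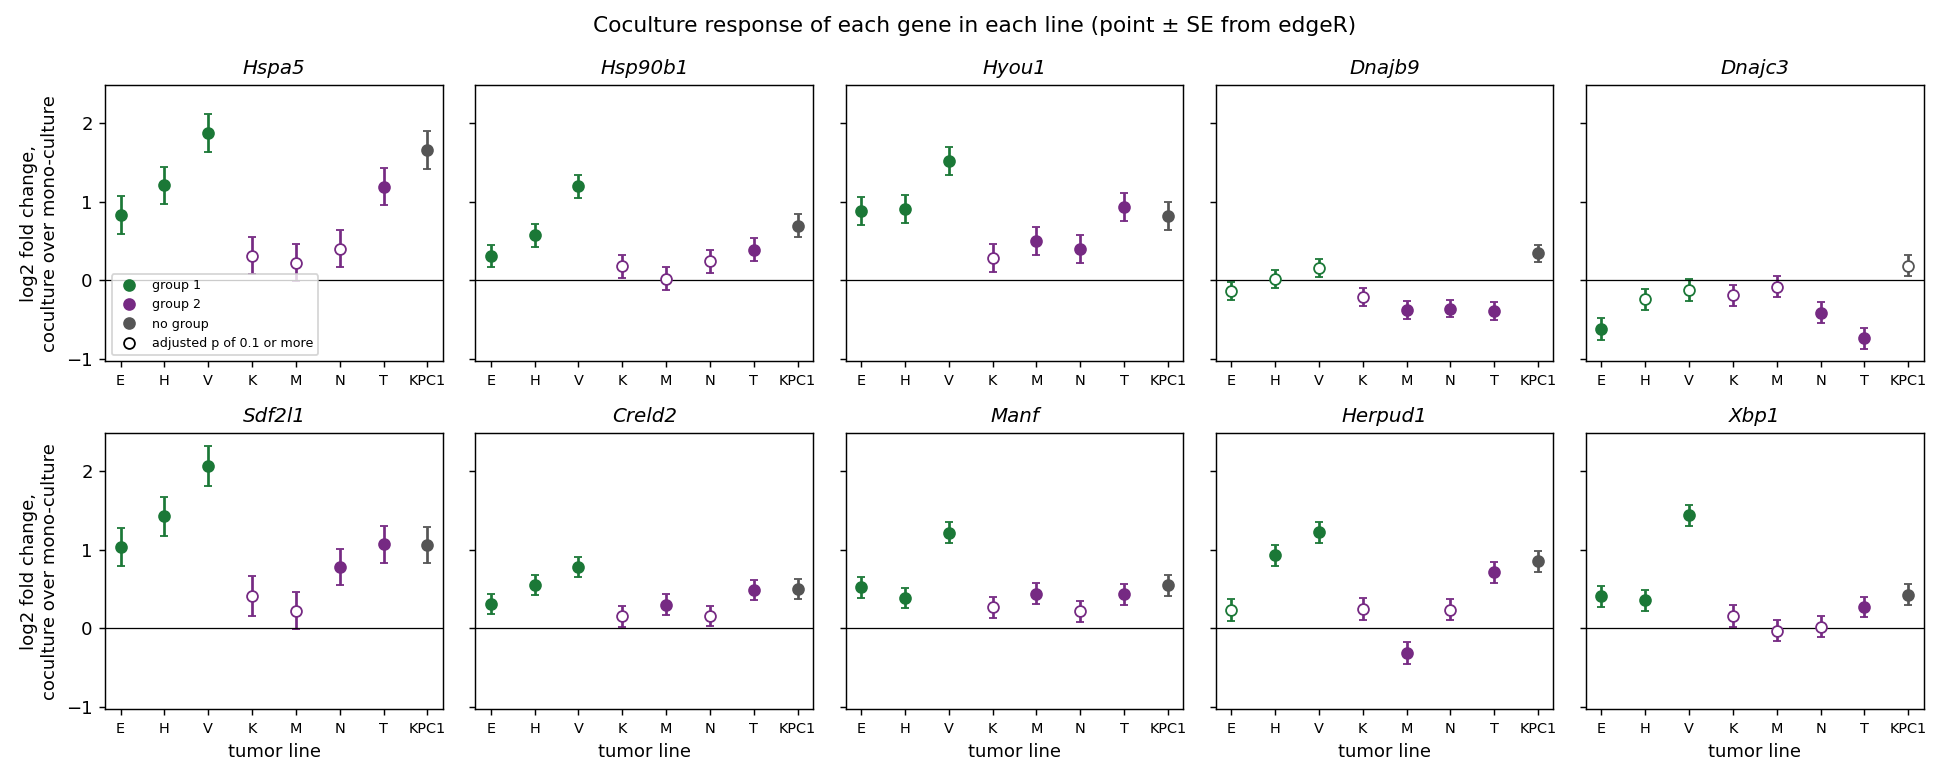
Coculture response of each gene in each line as log2 fold change over mono-culture; points are edgeR estimates with SE bars, filled where the adjusted p was under 0.1, and colors give the metabolic group. Clone V has the largest value for 8 genes, and K has open points throughout.

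Whether the responses differed between lines was tested by the line by culture interaction over all 64 libraries. All 10 genes were called, as were 71.3% of 14134 genes. Adjusted p-values from edgeR were between 3.28e-08 for Herpud1 and 0.0288 for Creld2. The distance between the largest and the smallest response of a gene ran from 0.62 on the log2 scale for Creld2 to 1.84 for Sdf2l1. For 8 genes the largest response was that of V. The smallest response was that of M for Hspa5, Hsp90b1, Sdf2l1, Herpud1 and Xbp1, of K for Hyou1 and Creld2, of N for Manf and of T for Dnajb9 and Dnajc3. Hspa5, Hsp90b1, Hyou1, Sdf2l1, Creld2 and Manf were above 0 in all 8 lines, 6 of the 10 genes, where 14.7% of all genes were.

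Taking the line as the replicate, with the 4 libraries of a line and culture added, 9 of the 10 genes were called, 8 higher and 1 lower in coculture. Of 14478 genes tested, 54.6% were called, 27.2% higher and 27.4% lower. The largest rises were those of Sdf2l1 (1.00 ± 0.19, adjusted p = 0.00331), Hspa5 (0.95 ± 0.20, adjusted p = 0.0046) and Hyou1 (0.78 ± 0.12, adjusted p = 0.00199). Herpud1 rose by 0.51 ± 0.16, Manf by 0.50 ± 0.10, Hsp90b1 by 0.45 ± 0.12 and Creld2 by 0.41 ± 0.08. Xbp1 rose by 0.38 ± 0.14 (adjusted p = 0.0556). Dnajc3 fell by 0.28 ± 0.10 (adjusted p = 0.0488), and Dnajb9 was at -0.12 ± 0.09 (adjusted p = 0.302). The median over the 10 genes was 0.48, and that over all genes was -0.00089. Without clone V, Xbp1 stayed called at 0.23, a value lower by more than 1.5 times. Dnajc3 was no longer called without E (-0.22), N (-0.25) or T (-0.21).

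Within sheet A, which held both cultures of 7 lines (all but K), the same 9 genes were called. Hspa5 was at 1.19, Sdf2l1 at 1.13, Hyou1 at 0.92 and Xbp1 at 0.49 on that sheet. Within sheet B, which held both cultures of H, K, M, T and KPC1, 5 genes were called (Hspa5 0.72, Sdf2l1 0.84, Hyou1 0.65, Creld2 0.33 and Manf 0.33). Hsp90b1 (0.26), Herpud1 (0.38), Xbp1 (0.12) and Dnajc3 (-0.23) kept their sign there without passing the threshold. Clone V, which had the largest responses, had its mono-culture libraries on sheet A only.

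Fibroblast marker RNA in coculture is given by line as the summed defining markers without Pdgfra, a choice made after seeing the data. The sum averaged 57.2 ± 37.2 CPM in V and 90.5 ± 70.7 CPM in K (SD, n = 4), and these libraries overlapped. The other lines had means between 60.9 CPM in KPC1 and 98.2 CPM in N. Over the 8 lines, Pearson's r between the mean log2 sum and a gene's response was between -0.78 (Manf) and -0.40 (Herpud1). With Pdgfra kept in the sum, r was weaker for every gene, between -0.60 (Manf) and -0.14 (Herpud1). Over the 32 coculture libraries, line means were removed. There r between the log2 sum without Pdgfra and a gene's level was between -0.06 (Dnajb9) and 0.56 (Herpud1). Points of these correlations share sorts and libraries. The part of this RNA in single values was not tested.

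Group 1 was then compared with group 2, which the study had defined by metabolite levels, with the clone as the replicate (3 against 4). In mono-culture 0 of the 10 genes were called by edgeR, and so were 0% of 14829 genes, while 2 of the 10 and 766 of all genes had an unadjusted p-value under 0.05. DESeq2 called 117 genes and 0 of the 10. The level of Sdf2l1 was 5.20 ± 1.52 CPM in the group 1 clones against 11.2 ± 4.89 CPM in those of group 2 (SD over clones), a log2 difference of -1.12 ± 0.42 with an adjusted p of 0.888. Its highest group 1 clone, at 6.21 CPM, lay just below its lowest group 2 clone, and groups were apart for 5.35% of all genes (2.34% with group 1 higher and 3.01% with it lower). Dnajc3 had 42.9 ± 10.5 CPM in group 1 against 67.2 ± 17.9 CPM in group 2, with overlap (-0.66 ± 0.27). Hspa5 was at 613 ± 108 CPM against 800 ± 469 CPM, since group 2 held both the highest clone (N) and the lowest (K). For Xbp1 the values were 45.6 ± 17.1 and 57.04 ± 30.01 CPM, and the difference of -0.33 had an SE of 0.49.

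In coculture 0 of the 10 genes were called between the groups by edgeR (1 of 14737 genes, 0.00679%), and 0 by DESeq2. In edgeR 1 of the 10 and 1263 of all genes had an unadjusted p-value under 0.05. Dnajc3 was lower in group 1, at 31.6 to 36.9 CPM, than in group 2, at 41.7 to 62.4 CPM (-0.61 ± 0.18, adjusted p = 0.581). Dnajb9 was at 45.3 to 49.2 CPM in group 1 and at 32.1 to 41.8 CPM in group 2 (0.35 ± 0.16, adjusted p = 0.581). For these genes the groups were apart, which was so for 9.24% of all genes (4.78% with group 1 higher and 4.45% with it lower). The other 8 genes overlapped between the groups. Hspa5 had 1565 ± 426 CPM in group 1 against 1227 ± 789 CPM in group 2.

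The difference in response between the groups was tested as the interaction of group and culture over 14 sums. The interaction was above 0, toward group 1, for all 10 genes with every clone included, while that of Dnajc3 (0.05) lay between -0.092 and 0.22 when 1 clone was left out. The median over the 10 genes was 0.55, against -0.00043 over all genes, yet 0 of the 10 were called (1 of 14523 genes, 0.00689%), and 0 by DESeq2. Unadjusted p-values were under 0.05 for 6 of the 10 and for 1096 of all genes. These 6 were Sdf2l1 (0.93 ± 0.31), Hspa5 (0.81 ± 0.32), Xbp1 (0.65 ± 0.27), Hyou1 (0.59 ± 0.22), Hsp90b1 (0.52 ± 0.22) and Dnajb9 (0.37 ± 0.13), all with an adjusted p of 0.658. Clone V weighed on these values: without it the interaction was 0.29 for Xbp1, 0.51 for Hspa5 and 0.25 for Hsp90b1. Clone T of group 2 had a response between those of E and H for Hspa5 and Sdf2l1.

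**Figure D3:**
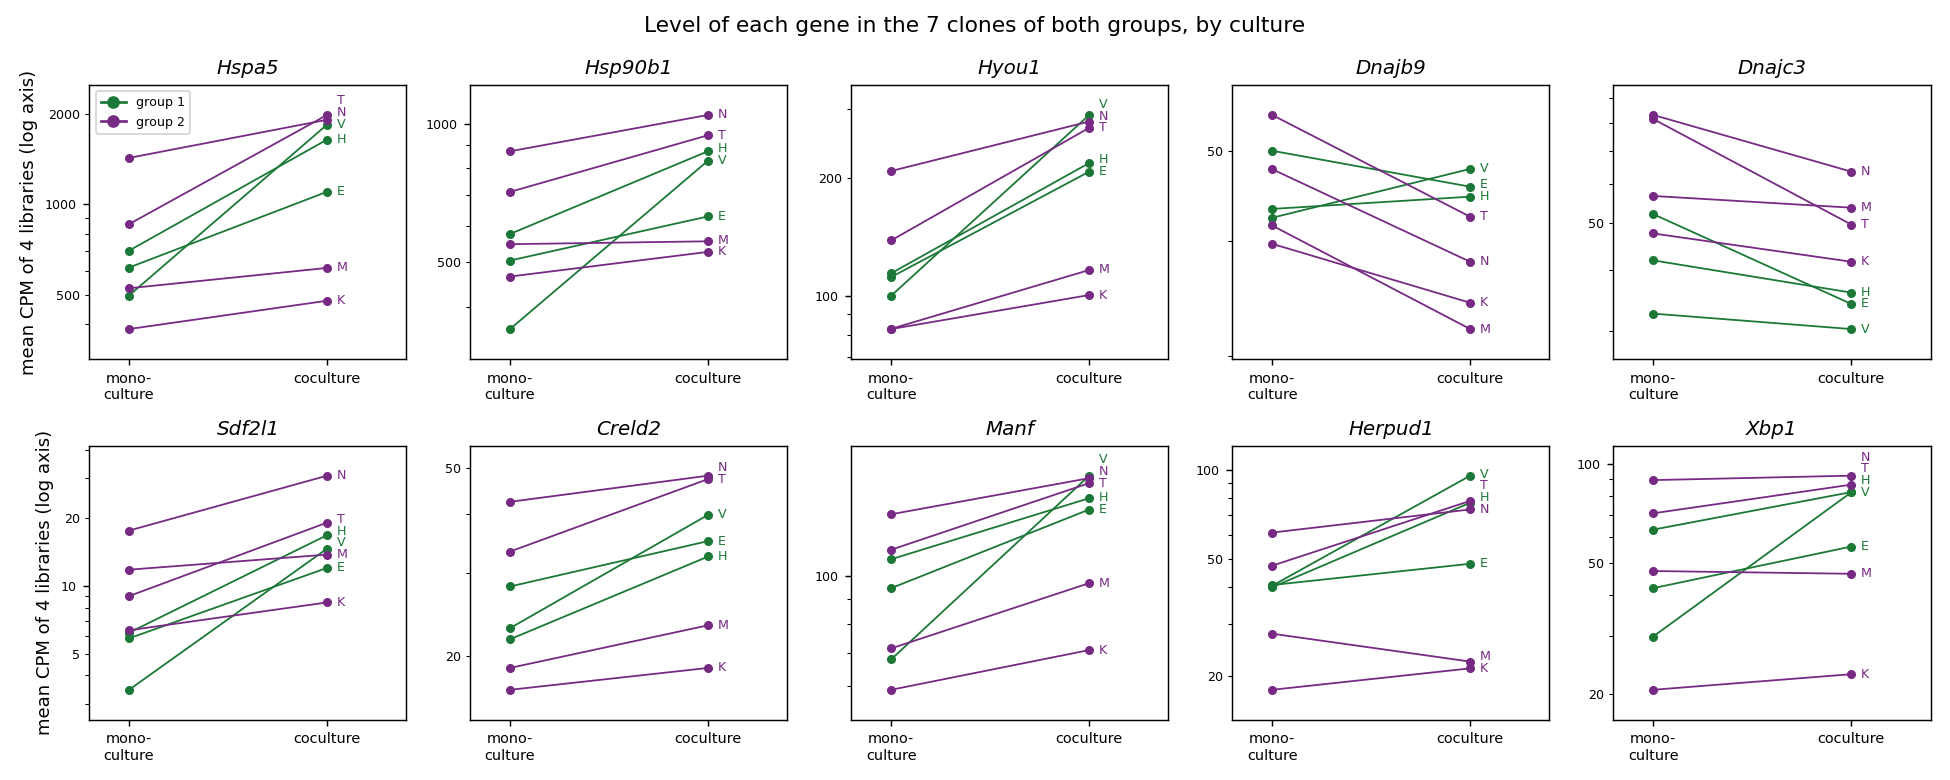
Mean CPM of 4 libraries (log axis) of each gene in the 7 clones by culture, with lines joining the cultures of a clone and colors for the metabolic groups. The line of clone V is the steepest for Hspa5, Sdf2l1 and Xbp1, those of M and N are nearly flat for Xbp1, and the groups are apart in coculture for Dnajb9 and Dnajc3 alone.

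How far the 10 genes moved together was described by Pearson's r of mean log2 CPM over the 16 line and culture groups, which share lines and cultures. The median r over the 45 pairs was 0.81. The highest was that of Hspa5 and Hyou1 (0.98), followed by Hspa5 and Manf (0.96), and the lowest was that of Dnajc3 and Herpud1 (-0.04). On this measure Dnajc3 had no r above 0.32 with another of the 10 genes, and Dnajb9 none above 0.57. Responses alone, over 8 lines, gave a median r of 0.81 over the pairs. By responses Dnajb9 had an r of 0.80 with Hspa5, 0.78 with Hsp90b1 and 0.70 with Herpud1, whereas Dnajc3 had 0.20 with Hspa5 and 0.63 with Dnajb9, its highest. Over the 8 cocultures the r of Dnajb9 with Hspa5 was 0.81. Deviations of single libraries from the mean of their line and culture gave a median r of 0.51 over 64 libraries, with 0.84 for Hspa5 and Hyou1.

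**Figure D4:**
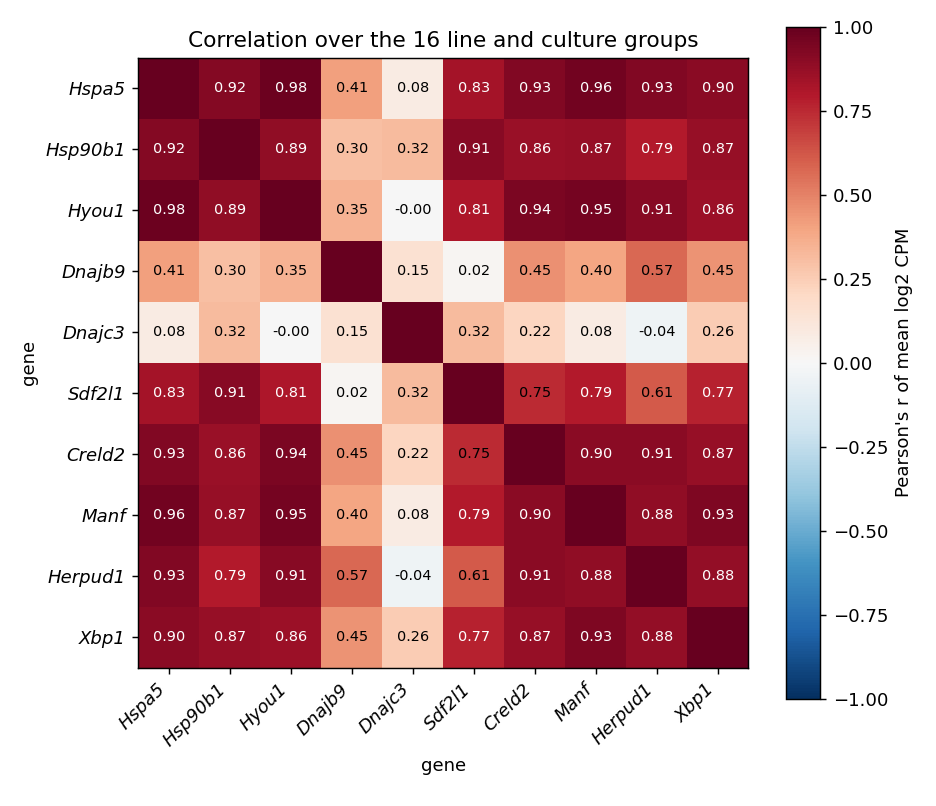
Pearson's r of mean log2 CPM between each pair of the 10 genes over the 16 line and culture groups, printed in each cell and shown by color. The rows of Dnajb9 and Dnajc3 are pale, and Hspa5, Hyou1 and Manf form the cells of highest r.

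Other genes were ranked by the same r among 9114 genes of at least 10 CPM on average. The closest to Hspa5 outside the 10 were Ngdn and Ero1l (both 0.97), 1810032O08Rik (0.97), Reep4 (0.96) and Apmap (0.96). Ero1l encodes the oxidase that regenerates protein disulfide isomerase. Hyou1 ranked at 1 and Manf at 7 among all genes by likeness to Hspa5, Creld2 at 50 and Xbp1 at 109, whereas Dnajb9 ranked at 2942 and Dnajc3 at 4294. The closest to Xbp1 were Edem1, Imp3, Sec11c, Gphn and Rmdn3 (r from 0.93 to 0.94). Edem1 encodes a lectin-like protein of ER-associated degradation and Sec11c a subunit of the signal peptidase.

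Lists of other genes of the pathway were counted in the response across 8 lines. Of 18 folding partners of the ER, 8 rose and 3 fell, with a median log2 fold change of 0.14. The disulfide isomerases Pdia4 (0.44 ± 0.05) and Pdia6 (0.42 ± 0.07) rose, while P4hb, also an isomerase (-0.27 ± 0.10), and Uggt1, the folding sensor of glycoproteins (-0.31 ± 0.10), fell. Of 12 genes of ER-associated degradation, 2 rose and 2 fell, with a median of 0.01. Derl1, a channel component (0.25 ± 0.10), and Edem1 (0.28 ± 0.11) rose, and the lectins Os9 (-0.25 ± 0.07) and Erlec1 (-0.26 ± 0.07) fell. Of 16 genes of translocation and retrieval, 5 rose and 1 fell. Spcs3 of the signal peptidase (0.70 ± 0.09) and Kdelr3 (1.06 ± 0.24) rose, and Kdelr1 (-0.32 ± 0.08), like Kdelr3 a receptor that returns ER proteins, fell.

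Of the 4 stress sensors, Ern1 (0.50 ± 0.14, adjusted p = 0.0164) and Atf6b (0.20 ± 0.08, adjusted p = 0.0718) rose. Atf6 was at 0.23 ± 0.13 (adjusted p = 0.159) and Eif2ak3 at -0.05 ± 0.07 (adjusted p = 0.608). The list with the highest median was that of 8 genes downstream of PERK, which are also induced by other kinases of the integrated stress response. Of these 7 rose and 0 fell, with a median of 1.11, and the smallest p-values were those of Asns, asparagine synthetase (1.30 ± 0.18), and Trib3, a pseudokinase (1.48 ± 0.26). All lists are to be read against the 27.2% and 27.4% of all genes that rose and fell.

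**Figure D5:**
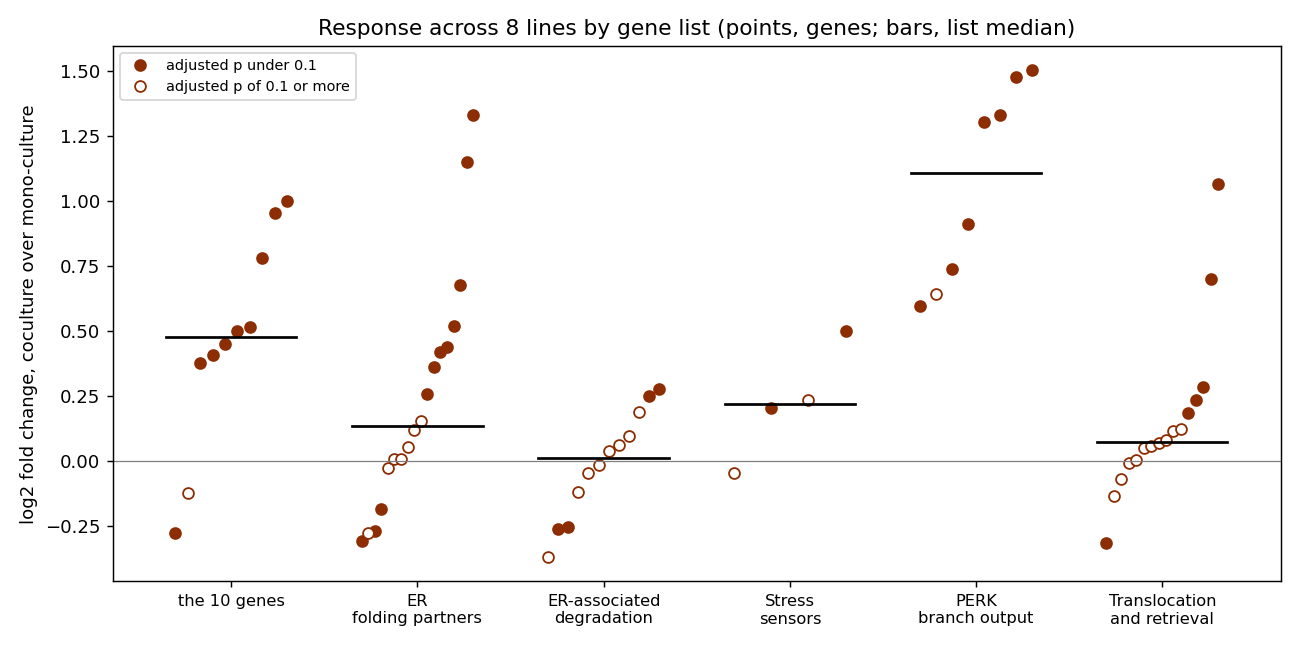
Response across 8 lines (log2 fold change, coculture over mono-culture) of the 10 genes and of 5 lists of related genes; points are genes, filled where the adjusted p was under 0.1, and bars are list medians. The 10 genes have a median of 0.48, above the folding partners (0.14) and below the genes downstream of PERK (1.11).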

How the data were processed

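The authors deposited 2 tables: whole-number read counts for 39017 genes without normalization, and RPKM values, which the authors computed for 49585 genes. Per the submitters' processing notes featureCounts, edgeR and mm10 were used. The aligner, the annotation and the strand setting are not given in the sources used here, so a gene and an overlapping antisense gene might share reads. Libraries were made from polyadenylated RNA with a strand-specific kit and sequenced as paired ends. All 64 columns were mapped to samples, and 0 were left unused.

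Samples were grouped by line and culture from the labels and by the study's groups. Counts were tested in edgeR 4.0.16 (R 4.3.3) by the quasi-likelihood test after TMM scaling and filterByExpr, with Benjamini-Hochberg adjustment over all genes tested and a threshold of 0.1, the study's. SE is the log2 fold change over the root of F. Line responses and their differences used 64 libraries, while other tests used sums of 4 libraries (with the line as covariate in the response across 8 lines and the interaction). CPM used TMM-scaled totals, and log2 CPM a prior count of 0.5. In 96 pairs of libraries of the same line and culture the chi-square divided by the number of genes was 4.46 to 65.5, above sampling noise. Scripts were tested on simulated data.

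The 10 genes, the pathway and marker lists and the naming rule were chosen with earlier results of these data known. Named were the 10 genes, in each pathway list up to 2 genes per direction with the smallest p-value in the response across 8 lines among those called, the 4 sensors, and the 5 genes nearest to Hspa5 and to Xbp1. Alternatives were DESeq2 1.42.0, limma 3.58.1 on log2(RPKM + 1) and log2(RPKM + 0.1), RLE scaling, no filter, a threshold of 0.05, sheets as covariate or alone, single libraries, blocks, and leaving out each replicate or line. Part of the genotype shared by the clones is not reported here.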

Additional observations from a re-analysis of the deposited data

Results flagged for a closer look

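Dixon's test for a lone extreme value among 4 libraries was applied to the 160 groups made by the 10 genes, 8 lines and 2 cultures. 11 groups passed its 95% critical value of 0.829, where chance flags about 1 in 20. In coculture, Hsp90b1 in KPC1 replicate 4 measured 1447 CPM against at most 1018 CPM in the others, Hyou1 in the same library 448 CPM against at most 373 CPM, Hyou1 in E replicate 3 246 CPM against at most 196 CPM, Sdf2l1 in N replicate 4 48.6 CPM against at most 25.7 CPM, and Manf in V replicate 3 198 CPM against at most 151 CPM. In mono-culture, Hyou1 in KPC1 replicate 4 measured 143 CPM against at least 237 CPM, Dnajc3 in KPC1 replicate 3 64.3 CPM against at most 44.1 CPM, Herpud1 in H replicate 1 35.1 CPM against at least 41.2 CPM, Herpud1 in M replicate 3 25.9 CPM against at least 28.2 CPM, Xbp1 in K replicate 2 16.3 CPM against at least 21.7 CPM, and Xbp1 in M replicate 3 51.7 CPM against at most 46.5 CPM.

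All 10 genes had responses that differed between lines by the test of the line by culture interaction, as did 71.3% of all genes. The adjusted p-values from edgeR were 4.09e-05 for Hspa5, 6.50e-05 for Hsp90b1, 0.000811 for Hyou1, 0.000191 for Dnajb9, 0.000683 for Dnajc3, 0.000323 for Sdf2l1, 0.0288 for Creld2, 0.000353 for Manf, 3.28e-08 for Herpud1 and 1.25e-07 for Xbp1.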

How the results depend on the processing

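The 52 called gene and line pairs became 50 to 54 under RLE scaling, no filter, DESeq2, the sheet covariate and limma, 47 at a threshold of 0.05 and 40 to 51 without 1 replicate number, the lowest without replicate 4, where M had 1 call and N 2. No called pair changed sign. Replicate numbers were not treated as pairing in the main tests, though same-numbered libraries of a line tended to be alike. Their r was between -0.108 and 0.580 (median 0.27, against -0.09 for other numbers), over 0.1 in 22 of 32 pairs. Of the 32, 21 correlated best with their own number. With the replicate block 52 pairs were called, 0 lost, and 10 genes in the interaction of line and culture. Across 8 lines 8 to 10 of the 10 genes were called under RLE scaling, no filter, DESeq2, a threshold of 0.05, sheet A alone, single libraries (also with the replicate block) or without 1 line and 5 on sheet B alone (2532 genes, against 7909), an alternative added after seeing the data. Dnajb9 passed with single libraries, Xbp1 not at 0.05.

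Single libraries as replicates called 3 of the 10 genes between groups in mono-culture (Hsp90b1, Dnajc3, Sdf2l1) and 3925 genes, though clones are the replicates. Genes called between groups moved from 0 to 217 in mono-culture, from 1 to 19 in coculture and from 1 to 34 in the interaction without clone E, and to 117, 193 and 191 with DESeq2, with 0 of the 10 among them each time. Some uncalled values changed sign when a clone was left out, and not all of these were near 0. With every clone included, Hspa5 was at -0.39 in mono-culture, and Sdf2l1 at -0.26 and Xbp1 at 0.27 in coculture. The signs changed in mono-culture for Hspa5 (-0.62 to 0.051), Hyou1 (-0.38 to 0.12), Dnajb9 (-0.094 to 0.074), Creld2 (-0.36 to 0.094), Manf (-0.22 to 0.17) and Herpud1 (-0.15 to 0.40). In coculture they changed for Hsp90b1 (-0.082 to 0.23), Sdf2l1 (-0.49 to 0.11), Creld2 (-0.11 to 0.28) and Xbp1 (-0.0034 to 0.51), and in the interaction for Dnajc3 (-0.092 to 0.22). Herpud1 in mono-culture was -0.087 on sheet A. The cause was not tested. No gene of the 10 had a count under 41 in any library.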

Other observations

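Of the 8 genes downstream of PERK, all rose in H, V and T, where 21.4%, 30% and 31.5% of all genes rose. In E 7 rose, against 32.1% of all genes. In KPC1, where 9 of the 10 ER genes rose, 4 of the 8 did, against 20.1%. In M 3 rose and 1 fell, against 21.6% and 17.3%, and in N 1 rose, against 20%. In K edgeR called 0, against 12.5% higher and 8.02% lower. An unadjusted p-value under 0.05 was found there for 3 of the 8 and for 3885 of all 14134 genes. The median log2 fold change of the 8 was 2.50 in V and 0.19 in K. Between the groups, the interaction with culture was above 0 for all 8, with a median of 1.20, against -0.00043 over all genes. In edgeR 0 of the 8 were called (1 of 14523 genes, 0.00689%). Unadjusted p-values were under 0.05 for 4 of the 8 and for 1096 of all genes. The 4 were Ddit3 (1.99 ± 0.64), Ppp1r15a (1.66 ± 0.62), Trib3 (1.23 ± 0.40) and Atf4 (0.68 ± 0.28). These 4 were named by this p-value after their values were seen. Ddit3 encodes CHOP, a transcription factor, and Ppp1r15a encodes GADD34, which restores translation.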
